A study of Mus musculus with 12 samples.

Results

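Cells take up glucose, split it to pyruvate by glycolysis, store it as glycogen, and, in liver and kidney, make it anew by gluconeogenesis. Most steps of glycolysis run in both directions and are shared by the routes, whereas the irreversible steps have enzymes of their own in each direction. Many steps are served by several isozymes encoded by separate genes, and the adult liver is known for its own set (L-type pyruvate kinase among them). The fetal liver also holds many red blood cell precursors.

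The genes described here are 40 enzymes, transporters and regulators of these routes, selected by gene symbol from the 30743 rows of the deposited table, and all 40 symbols were found. They comprise 26 genes of glycolysis and glucose uptake, 8 of gluconeogenesis and 6 of glycogen metabolism. The RNA came from whole livers of male C57BL/6J fetuses at 15 ± 0.5 days post coitum (dpc). The Control group (n = 6) came from dams fed 13.5 kcal% fat, and the HFD group (n = 6) from dams fed a high-fat diet of 60 kcal% fat, each for 12 to 14 weeks. The labels name no transgene, deletion or drug in either group, and how many dams the fetuses came from is not given in the sources used here. Polyadenylated RNA was sequenced with a kit that does not mark strand.

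The measurement used is the authors' average log2 CPM of each gene over all 12 livers, given below as CPM, a read count scaled to library size but not to gene length. It is 1 value per gene, so it has no spread between livers, and neither the fold changes nor the p-values of the authors' own diet comparison were used. The levels therefore describe Control and HFD livers together, and no diet difference was tested. The lowest average in the table was 0.152 CPM, held by 11091 rows, and is the level of a gene without reads. Reads over the 12 livers were read back from the averages on the assumption of a prior count of 2 per library, which gave a mean effective library of 13129748 reads. All 3149 rows read back as 1 to 5 reads lay within 0.1 of a whole number. Intervals on reads are exact Poisson intervals at 95%, and they cover counting error only. The error of reading counts back from the averages is not included in them and was not estimated for these genes.

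The label of the tissue was checked against marker genes. Hepatocyte genes were abundant, with albumin (Alb) at 63314 CPM and alpha-fetoprotein (Afp) at 54525 CPM, and 6 of 8 hepatocyte markers exceeded 1 CPM. Of the erythroid markers in the table, 5 of 6 exceeded 1 CPM, led by the anion exchanger Slc4a1 at 12037 CPM. Among markers of other cell types, 4 of 5 granulocyte, 4 of 4 megakaryocyte, 1 of 4 macrophage, 2 of 4 hematopoietic stem and progenitor cell, 3 of 4 endothelial, 3 of 4 stellate, 4 of 5 skeletal muscle and 2 of 5 acinar pancreas markers exceeded 1 CPM, beside 45.1% of the protein-coding rows matched to the annotation. Of the macrophage markers, Timd4 stood at 42.2 CPM, while Csf1r, Cd68 and Emr1 had 84, 9 and 0 reads. The skeletal muscle markers Acta1, Mylpf, Myh3 and Ckm stood at 55.0, 53.7, 32.0 and 10.3 CPM, while Tnnt3 had 0 reads. Which cells the reads of the muscle markers came from was not tested. Of the acinar markers, Cela1 and Cpa1 stood at 13.7 and 8.04 CPM, while Ptf1a, Pnlip and Amy2a5 had 11, 2 and 0 reads. Hnf4a, a hepatocyte transcription factor, nevertheless had 0 reads, and Alas2, the erythroid heme synthesis enzyme, was low at 87 reads and 0.704 CPM. Serpina1a, S100a9 and Kit likewise had 5, 2 and 1 reads, and Ly6a, Pecam1 and Pdgfrb had 0, whereas S100a8 had 75258 reads. A low marker is therefore not read here as a missing cell type. In a bulk liver, fewer cells of a type and less RNA per cell cannot be told apart. Whether the way reads were assigned set any of these levels was not tested.

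Of the 40 genes, 28 (70.0%) exceeded 1 CPM, against 33.1% of all rows and 45.1% of the protein-coding rows matched to the annotation. Their median was 11.1 CPM, at percentile 72.9 of the rows with reads. Glycolysis and glucose uptake contributed 18 of 26 above 1 CPM with a median of 15.8 CPM. Glycogen metabolism contributed 5 of 6 with a median of 19.99 CPM, and gluconeogenesis 5 of 8 with a median of 1.34 CPM. Above 100 CPM stood 4 glycolytic genes, 2 glycogen genes and no gluconeogenic gene. Gluconeogenesis thus had the lowest median CPM of the 3 routes, and its highest member, Fbp1, reached 22.0 CPM. These medians are over different genes and are not scaled to gene length. Whether the feature of the gene models described below set their order was not tested.

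**Figure D1:**
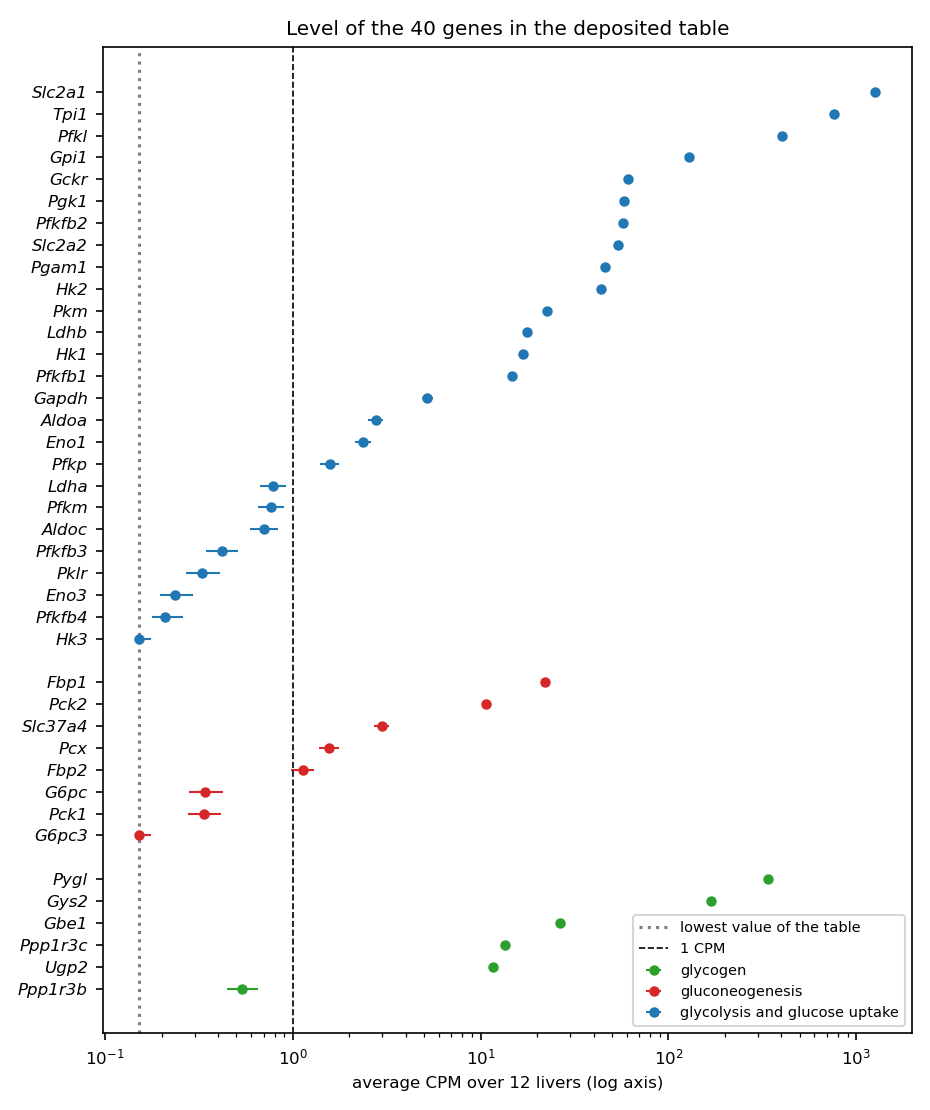
Average level of each of the 40 genes over 12 fetal livers, in CPM on a log axis, by route, with bars for the exact Poisson 95% interval of its reads (counting error only); the lines mark the lowest value of the table and 1 CPM. The points span 0.152 CPM, the level without reads, to 1259 CPM for Slc2a1, and no gluconeogenic gene passes 22.0 CPM.

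Glucose entry was led by Slc2a1 (GLUT1), the transporter of red cells and many growing cells, at 1259 CPM, from about 198272 reads (95% interval 197400 to 199147). Slc2a2 (GLUT2), the main transporter of adult hepatocytes, stood at 53.7 CPM. Divided by the length of annotated exons, Slc2a1 held 359 CPM per kb and Slc2a2 9.33 CPM per kb, a ratio of 38.5. Slc2a1 was the most abundant of the 40 genes both in CPM and per kb.

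The next step traps glucose as glucose 6-phosphate. Hk2 held 43.8 CPM, Hk1 16.9 CPM, and Hk3 had 0 reads, which allows up to 3 reads over the 12 livers by the one-sided limit for a count of 0. Per kb of exons, Hk2 made up 78.4% and Hk1 21.2% of the 3 hexokinases. Gckr, a regulatory protein of glucose phosphorylation in hepatocytes, reached 60.8 CPM. A further hexokinase-like gene outside the 40, Hkdc1, stood at 39.5 CPM and 7.69 CPM per kb, beside 7.34 CPM per kb for Hk2. That order turned when only bases found in a single transcript were counted, at 10.1 against 16.3 CPM per kb.

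RNA of phosphofructokinase, in the middle of glycolysis, was counted almost wholly as its liver form. Glucose phosphate isomerase (Gpi1) stood at 130 CPM. Pfkl, the liver form of the enzyme of the committed step, stood at 404 CPM. Pfkp, the platelet form, had 1.57 CPM and Pfkm, the muscle form, 0.767 CPM, so that Pfkl held 99.4% of the 3 per kb. The bifunctional PFKFB enzymes set the level of fructose 2,6-bisphosphate, the activator of phosphofructokinase. Pfkfb2 was at 57.2 CPM and Pfkfb1, the liver form, at 14.8 CPM, or 67.6% and 31.6% of the 4 per kb. Pfkfb3 had 42 reads and Pfkfb4 had 9 reads.

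Triose phosphate isomerase (Tpi1), which interconverts the products of aldolase, was the second most abundant of the 40 at 759 CPM and 276 CPM per kb. The aldolases among the members were low, with 2.77 CPM for Aldoa and 0.704 CPM for Aldoc. Gapdh, which oxidises glyceraldehyde 3-phosphate and is commonly used as a reference gene, was at 5.20 CPM from about 796 reads (742 to 853). Its neighbours Pgk1 (phosphoglycerate kinase) and Pgam1 (phosphoglycerate mutase) were higher, at 58.1 and 46.2 CPM. Enolase was at 2.37 CPM for Eno1 and 13 reads for Eno3, the muscle form.

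At the end of the route, Pkm, which encodes the pyruvate kinases of most fetal and growing tissues, stood at 22.6 CPM. Pklr, the liver and red cell form, had 28 reads (18.6 to 40.5), so that Pkm held 97.8% of the pair per kb. Ldhb, the lactate dehydrogenase subunit common in heart, was at 17.7 CPM and Ldha, the subunit common in muscle and liver, at 0.786 CPM from about 100 reads (81.4 to 122). Ldhb held 97.9% of that pair per kb. Gm13315, a pseudogene copy of Ldha described below, stood at 26.9 CPM, and whether it took reads of Ldha was not tested.

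**Figure D2:**
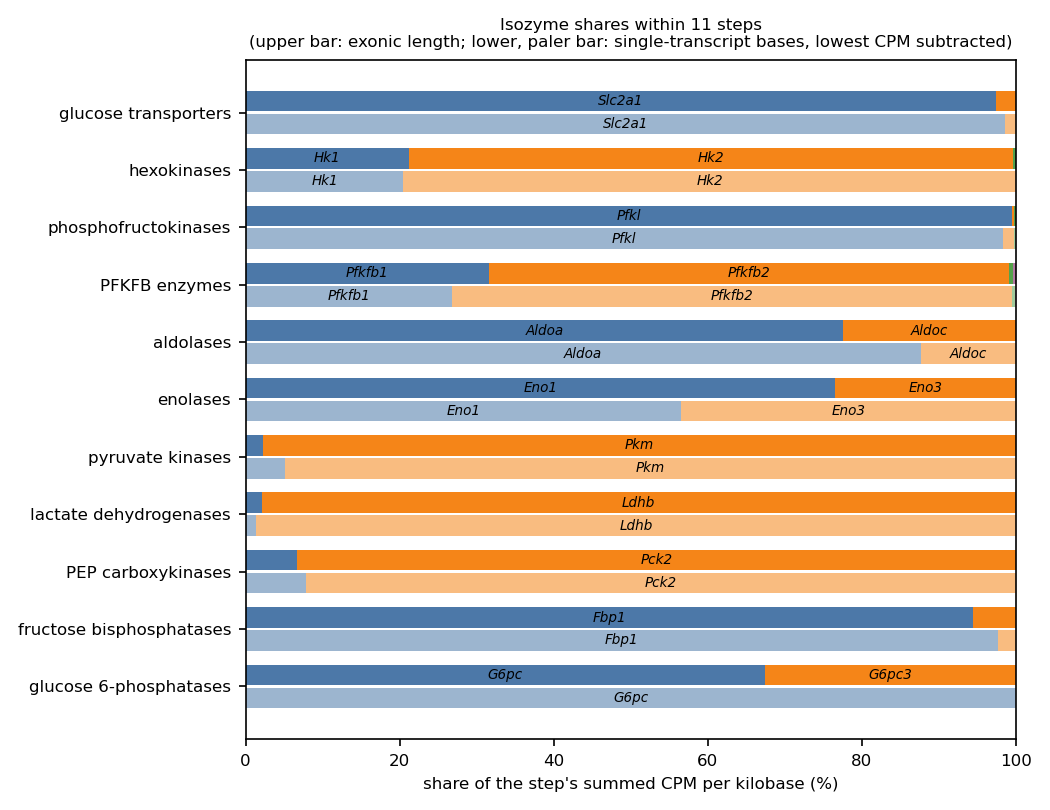
Share of each isozyme in the summed level per kb within 11 steps, in percent; the upper bar divides by annotated exon length, and the lower bar by bases found in 1 transcript only after the lowest CPM was subtracted. A single gene fills over 90% of the upper bar for glucose transporters, phosphofructokinases, pyruvate kinases, lactate dehydrogenases, PEP carboxykinases and fructose bisphosphatases; the G6pc3 part of its upper bar is the prior count alone, at 0 reads.

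Gluconeogenesis begins in mitochondria with pyruvate carboxylase (Pcx), which stood at 1.56 CPM. Phosphoenolpyruvate carboxykinase RNA was counted mostly as the mitochondrial form, Pck2, at 10.7 CPM. The cytosolic form Pck1, the hormone-regulated enzyme of adult liver, had 29 reads (19.4 to 41.6), and Pck2 held 93.3% of the pair per kb. The percent of exonic bases in only 1 annotated transcript, described below, was 20.9 for Pck1 and 44.7 for Pck2. Whether this feature set their levels was not tested. Fbp1, the liver fructose bisphosphatase, was the most abundant gene of the route at 22.0 CPM (3439 reads), against 1.13 CPM (154 reads) for Fbp2, the muscle form.

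The last step releases free glucose in the endoplasmic reticulum. The transporter that feeds it, Slc37a4, stood at 2.97 CPM. The catalytic subunit G6pc had 30 reads (20.2 to 42.8) over 12 livers, and the ubiquitous form G6pc3 had 0 reads. Both Pck1 and G6pc, the genes by which gluconeogenesis is usually followed, therefore lay in the lower part of the rows with reads, at percentiles 31.2 and 31.4. The intervals of their reads overlapped, so their order in CPM could not be told at this depth.

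Glycogen genes were high by comparison in CPM. Pygl, the liver phosphorylase that releases glucose from glycogen, stood at 341 CPM (53711 reads). Gys2, the liver glycogen synthase, stood at 169 CPM (26610 reads), and per kb it exceeded Pygl at 63.6 against 49.5 CPM per kb. That order turned when only bases found in a single transcript were counted, at 72.1 against 82.2 CPM per kb. The branching enzyme Gbe1 was at 26.5 CPM and Ugp2, which makes UDP-glucose, at 11.6 CPM. Of the subunits that bring protein phosphatase to glycogen, Ppp1r3c stood at 13.5 CPM and Ppp1r3b, the liver form, at 0.539 CPM (61 reads).

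A further 47 genes of the same routes, listed apart from the 40, gave comparable counts: 34 exceeded 1 CPM and 2 (Pgk2 and G6pc2) had 0 reads. High among them were the lactate transporter Slc16a1 at 637 CPM and Bpgm, which makes the hemoglobin regulator 2,3-bisphosphoglycerate in red cells, at 321 CPM. The pyruvate dehydrogenase subunits Pdha1 and Pdhb stood at 222 and 143 CPM. Pygb, the brain phosphorylase, reached 171 CPM and Gys1, the muscle synthase, 28.2 CPM. Mlxipl, the glucose-responsive transcription factor ChREBP, was at 2.15 CPM.

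The levels moved with a feature of the gene models. For each gene, the share of exonic bases that lie in only 1 annotated transcript was computed from the GENCODE M21 annotation. Among 15603 protein-coding genes with more than 1 transcript, the median level was 0.152 CPM where that share was under 10%, and 50.6% of those 1590 genes had no reads. It was 0.255 CPM from 10 to 20%, 0.563 CPM from 20 to 40%, 1.09 CPM from 40 to 60% and 2.66 CPM from 60 to 80%. Where the share was 80% or more, the median was 10.5 CPM and 9.68% of 1787 genes had no reads. These are values across genes, which are not replicates, and no test was made.

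The medians of the multi-transcript members rose in the same order, with values of 0.193, 1.16, 7.20, 16.9, 53.7 and 85.1 CPM in those bins of 2, 4, 14, 9, 7 and 2 genes. The top bin holds only Gys2 at 169 CPM and Fbp2 at 1.13 CPM. All 11 multi-transcript members with a share of 50% or more exceeded 1 CPM (median 46.2 CPM), compared with 16 of 27 below that share (median 2.97 CPM). Pfkl (79.2%) and Gys2 (88.2%) were among the high ones. Among the low ones were Hk3 (8.77%), Eno3 (9.95%), Pklr (13.2%), Pfkm (15.7%) and Pck1 (20.9%). There were exceptions. Fbp2 (82.6%) and Pfkp (67.1%, 1.57 CPM) were low at a high share. Slc2a1 had a share of 32.9% and was the highest gene, Gapdh had 50.1% and Eno1 66.7% at levels of a few CPM, and G6pc has a single annotated transcript. The 3115 protein-coding genes with 1 transcript had a median of 0.253 CPM. Whether the way reads were assigned to transcripts set any of these levels was not tested, and the counting tool is not given in the sources used here. The low values of Gapdh, Aldoa, Ldha, Pklr, Pfkm and Pck1 are given as the table holds them.

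**Figure D3:**
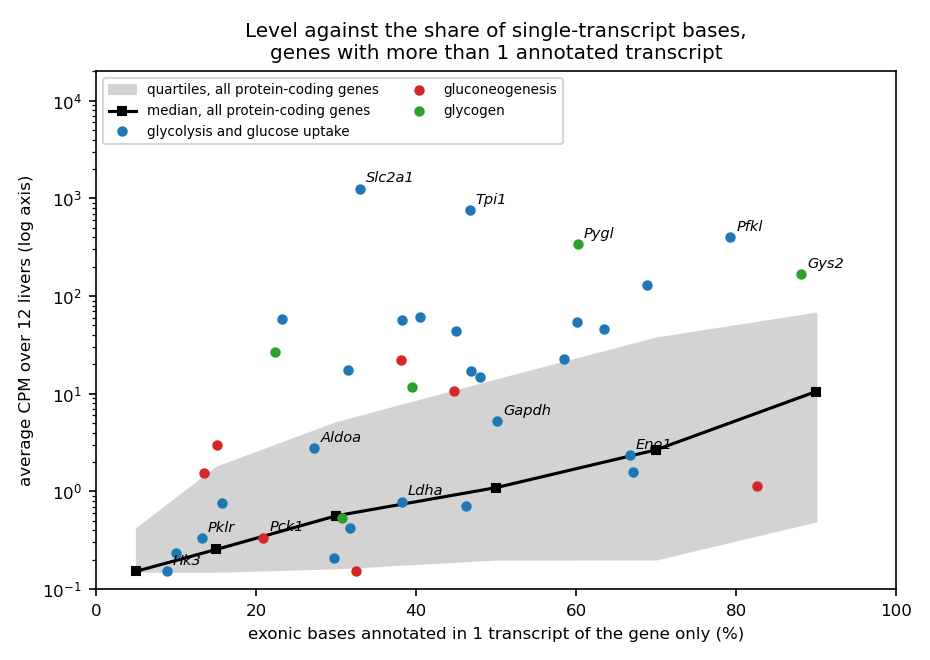
Level of each gene in CPM (log axis) against the percent of its exonic bases that lie in only 1 annotated transcript, for protein-coding genes with more than 1 transcript; points are members, and the line and shaded band are the median and quartiles of all such genes by bin. The bin medians climb from 0.152 CPM under 10% to 10.5 CPM at 80% or more, and Slc2a1, at 32.9%, lies far above its bin.

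Several low members have near-copies elsewhere in the genome, and some of these copies were listed at higher levels than the gene itself. Coding sequences of the 40 genes were aligned to all annotated transcripts, and matches of at least 200 bases at 85% identity or more were kept. Aldoart1, a testis-expressed aldolase gene on chromosome 4 (mm10, 72850583 to 72852634, minus strand), is 93.6% identical to Aldoa and stood at 50.5 CPM, 18.2-fold the level of Aldoa. Aldoart2 (91.7% identical) stood at 18.5 CPM. Gm13315, a processed pseudogene of Ldha on chromosome 2 (mm10, 14721134 to 14722124, plus strand), is 91.8% identical and stood at 26.9 CPM, 34.2-fold the level of Ldha.

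The central stretches of the 2 leading alignments are printed to show how closely a copy resembles its gene; they are read 5′ to 3′ from the coding strand, with capitals at the bases that differ within each pair. Coding bases 581 to 670 of Aldoa, a gene on chromosome 7 (mm10, 126795234 to 126809108), differ from Aldoart1 at 4 of 90 positions, and coding bases 541 to 630 of Ldha, also on chromosome 7 (mm10, 46841475 to 46855627), differ from Gm13315 at 10 of 90.
Aldoa: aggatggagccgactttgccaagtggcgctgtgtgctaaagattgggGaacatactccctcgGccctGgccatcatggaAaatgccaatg
Aldoart1: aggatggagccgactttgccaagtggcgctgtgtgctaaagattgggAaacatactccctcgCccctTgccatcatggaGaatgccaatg
Ldha: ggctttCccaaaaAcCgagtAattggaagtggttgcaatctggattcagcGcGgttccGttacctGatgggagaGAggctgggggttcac
Gm13315: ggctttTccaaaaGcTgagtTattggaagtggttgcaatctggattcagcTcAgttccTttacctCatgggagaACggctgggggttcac

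For Gapdh, 291 annotated genes held such a match and 9 of them were rows of the table. Among the 9 is Peli2 at 0.901 CPM, a longer gene whose level need not be that of the matching stretch. The highest was 3000002C10Rik at 5.76 CPM (94.3% identical), beside 5.20 CPM for Gapdh itself, followed by Gm6981 at 1.60 CPM. Eno1 has a copy of 99.4% identity, Gm5506, listed at 1.24 CPM against 2.37 CPM. Tpi1, Pgk1, Pgam1, Pkm, Gpi1, Ldhb and Pygl also had annotated copies, but none of these was a row of the table. The values of Aldoa, Ldha, Eno1 and Gapdh are uncertain to the extent that reads fell on a copy. The same holds for the isozyme shares of the aldolases, enolases and lactate dehydrogenases. Whether reads fell on a copy was not tested.

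**Figure D4:**
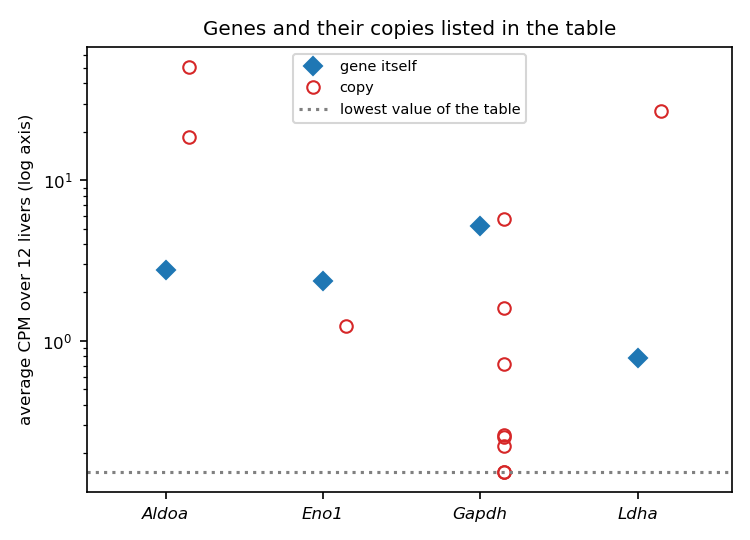
Levels in CPM (log axis) of Aldoa, Ldha, Eno1 and Gapdh and of their near-copies listed in the table, with 1 point for each row other than Peli2, which is not drawn. Aldoart1 at 50.5 CPM and Gm13315 at 26.9 CPM lie above Aldoa at 2.77 and Ldha at 0.786 CPM, while Gm5506 lies below Eno1.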

How the data were processed

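Whole-liver polyadenylated RNA from 12 male fetuses was sequenced on an Illumina HiSeq. Per the submitters' processing notes, the authors used cutadapt 1.2.1 for trimming, Subread 1.3.6-p1 for alignment (build mm10) and edgeR (version not given) for the count model; the read counter is not given in the sources used here. The deposited table holds 1 average log2 CPM per gene over all livers, computed by the authors, beside their diet fold changes, p-values and adjusted p-values, which were not used. The planned diet test needs a value per liver and was not run.

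From the log2 CPM, CPM and reads were computed (python 3.11.15, numpy 2.4.6, pandas 2.3.3, scipy 1.17.1), with a prior count of 2 per library and 24 in all assumed; the read-back was tested on simulated data. The mean effective library of 13129748 reads gives the precision; depth per liver is unknown here. Symbols were matched to GENCODE M21 on GRCm38, the assembly of mm10 (21063 symbols, all 40 members, 18718 protein-coding). Levels were divided by exonic length. Coding sequences were aligned to transcripts with blastn 2.17.0; a 95% identity limit was tried first, and 85% was chosen after its matches were seen. All 40 members were named by rule, with other pathway genes, markers and near-copies where a result turned on them. Members and lists were chosen with earlier results of these data known. No value belongs to 1 liver, so the 6 Control and 6 HFD livers could not be compared as replicates. Some genes of these routes are not reported here.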

Additional observations from a re-analysis of the deposited data

How the results depend on the processing

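Every value is a pooled average, so these checks concern scale only. No paired analysis was possible because the value used is 1 average per gene; for the same reason the edgeR and DESeq2 diet tests and leaving out each liver were not run. The gene with the largest share within a step, by exonic length, was also the largest in 11 of 11 steps with coding length, longest transcript or the lowest CPM subtracted. With bases found in 1 transcript only, a length chosen after seeing the data, it was the largest in 9 of 11: Eno1 fell to 32.7% and G6pc to 40.2%, below Eno3 and G6pc3, which had 13 and 0 reads. Subtracting the lowest CPM as well, a step added after those values were seen, gave 11 of 11, with Eno1 at 56.5% and G6pc at 100%; the order within enolases depends on this choice, whereas the G6pc3 share before subtraction is the prior count alone, beside 30 reads for G6pc.
Some shares differed from the exonic-length value by more than the margin of a 95% counting interval on the leading gene's share of reads. All scales use the same reads, so this cutoff is a rule for listing and not a test. These shares, in percent, were as follows. With coding length, Slc2a1 was 96.1, Hk2 72.6, Pfkfb2 75.9, Eno1 91.0, Pkm 98.7, Ldhb 96.0, Pck2 96.7 and Fbp1 95.1. With the longest transcript, Slc2a1 was 97.6, Hk2 66.5, Pfkl 99.6, Pfkfb2 69.2, Aldoa 87.6, Eno1 88.6, Pkm 98.8, Ldhb 96.9, Pck2 94.9 and G6pc 59.4. With the lowest CPM subtracted, Pfkl was 99.5, Eno1 89.7, Pkm 98.8, Pck2 96.2, Fbp1 95.1 and G6pc 100. With bases in 1 transcript only, Slc2a1 was 98.6, Pfkl 97.9, Pfkfb2 72.0, Aldoa 85.5, Pkm 90.9, Pck2 86.7 and Fbp1 97.3; with the lowest CPM subtracted as well, Slc2a1 was 98.6, Hk2 79.5, Pfkl 98.3, Pfkfb2 72.6, Aldoa 87.6, Pkm 94.8, Pck2 92.2 and Fbp1 97.7.
Of the 8 gluconeogenic genes, 5 exceeded 1 CPM, 3 exceeded 2 CPM and 2 exceeded 10 CPM. The median percentile of the 40 genes was 72.9 among rows with reads, 82.7 among all rows and 58.8 among rows above 1 CPM. These counts and percentiles change by construction with the threshold and the set of rows.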
